A study of Homo sapiens with 20 samples.

Results

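The arrays compared here came from SUM44, a long-established human cell line of invasive lobular breast carcinoma. They were the 4 arrays titled as 3 h of estradiol (E2) and the 4 titled as 0 h, which are 8 of the 20 arrays of the series. The series also holds 4 arrays of vehicle at 24 h and 4 of estradiol at 24 h. Those arrays enter the statistical fit and the choice of probe set, and their values are not described. Cells of every group had been deprived of hormone for 3 days under charcoal-stripped serum, whose share is given as 10% in the sample text and as 2% in the series text. The 0 h group, called the baseline, received nothing further. The estradiol group received 1 nM E2 for 3 h, and another group of 4 arrays, called vehicle, received 0.01% ethanol for 3 h. Replicates are described as biological ones. SUM44 is 1 cell line, so the spread between arrays is that of cultures and not of tumours. Estradiol cells differ from the baseline both by the hormone and by the addition of medium and 3 h of culture. Vehicle cells differ from the baseline by ethanol, by handling and by 3 h of culture, which cannot be told apart here. No ethanol share is given for the estradiol cells. Whether the baseline cells were handled in any way at 0 h is not given in the sources used here. Values of the vehicle group are therefore given beside those of estradiol.

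Estradiol binds the estrogen receptor ESR1, a nuclear receptor that attaches to enhancers and recruits coactivators or corepressors, so the first target genes change within hours and before cells divide. Many targets are receptors, signalling inhibitors and transcription factors whose products then alter later genes. Changing or disturbing the medium of cultured cells is itself known to set off short responses, among them immediate-early genes that answer growth factors, genes of the aryl hydrocarbon receptor, which senses planar aromatic compounds, and genes of cystine uptake and thioredoxin that answer oxidants.

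Values are log2 expression after RMA, so 1 unit is a doubling of the array signal, and a level can be compared between groups for a gene but not between genes. The 7 luminal epithelial markers examined all lay above the level taken as dim (log2 6.11, below which the lowest 25% of genes lie) in the 3 groups. The 3 measured basal markers lay below it, as did 4 of 5 stromal markers and 2 to 3 of 5 immune and endothelial markers. The signal at the 3′ end minus that at the 5′ end of the ACTB control transcript was 0.466 ± 0.010 (SD, n = 4) in the baseline, 0.315 ± 0.027 in vehicle and 0.385 ± 0.032 with estradiol, a difference between estradiol and baseline with p = 0.0286 by a two-sided exact permutation test, the smallest that 4 against 4 arrays allow. For GAPDH the same two-sided exact permutation test gave p = 0.2. The part of RNA quality in the results was not tested. In bulk RNA, fewer cells of a type and less RNA per cell cannot be told apart.

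Promoter sequences are given for 4 genes on which estradiol and vehicle cells diverged. They are the 250 bases before the start site in RefSeq (GRCh38.p14), on the gene's own strand and 5′ to 3′, with the letters of a searched motif in capitals. These entries were picked because they hold the motif, so the match is a description and not a site.
TIPARP, chr3:156674340-156674589, plus strand: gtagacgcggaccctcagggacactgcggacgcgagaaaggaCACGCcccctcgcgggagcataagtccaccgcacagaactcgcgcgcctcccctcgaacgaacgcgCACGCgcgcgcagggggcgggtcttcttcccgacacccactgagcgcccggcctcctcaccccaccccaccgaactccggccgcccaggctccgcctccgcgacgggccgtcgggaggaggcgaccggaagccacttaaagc
SLC30A1, chr1:211579162-211579411, minus strand: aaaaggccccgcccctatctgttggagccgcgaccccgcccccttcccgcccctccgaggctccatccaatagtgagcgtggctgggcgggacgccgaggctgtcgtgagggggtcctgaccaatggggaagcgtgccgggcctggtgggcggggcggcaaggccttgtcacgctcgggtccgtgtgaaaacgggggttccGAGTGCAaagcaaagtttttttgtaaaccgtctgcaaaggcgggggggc
RND3, chr2:150487668-150487917, minus strand: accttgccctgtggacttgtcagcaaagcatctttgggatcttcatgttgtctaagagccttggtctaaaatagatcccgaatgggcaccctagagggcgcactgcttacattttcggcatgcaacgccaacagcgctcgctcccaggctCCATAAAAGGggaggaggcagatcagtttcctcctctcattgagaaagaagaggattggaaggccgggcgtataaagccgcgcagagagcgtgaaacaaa
TXNRD1, chr12:104286782-104287031, plus strand: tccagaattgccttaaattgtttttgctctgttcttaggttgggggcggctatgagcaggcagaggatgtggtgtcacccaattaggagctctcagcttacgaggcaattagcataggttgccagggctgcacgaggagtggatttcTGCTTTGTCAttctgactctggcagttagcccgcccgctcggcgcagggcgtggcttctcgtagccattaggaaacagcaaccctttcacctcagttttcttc
TIPARP holds 2 copies of the core of the dioxin response element, GCGTG, the letters read by the aryl hydrocarbon receptor. Both lie on the other strand, at positions -208 and -142 counted from the start site. SLC30A1 holds 1 copy of the metal response element TGCACNC, read by MTF1, on the other strand. RND3 holds 1 CArG box, read by serum response factor, and TXNRD1 holds 1 antioxidant response element, read by NRF2, on the other strand. All motifs were searched on both strands, only the motif named for a gene is in capitals, and these capitals overlap no other searched motif. Among all 35116 promoter entries of the same length, 32.2% hold the dioxin core, 9.87% the metal element, 1.16% the CArG box and 2.59% the antioxidant element. Among the 131 entries of the genes at least 1.5-fold higher in vehicle (78 of 97 genes matched), the shares were 40.5%, 7.63%, 3.05% and 3.82%. Among the 501 entries of the genes at least 1.5-fold higher with estradiol (306 of 371 matched) they were 39.9%, 11%, 2% and 3.59%.

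The first question was which genes had left the deprived starting state after 3 h of estradiol. Of 11963 genes, 4251 passed the test against the baseline (35.5%), 1881 higher (15.7%) and 2370 lower (19.8%). Most of these changes were small, with a median size of 0.255 on the log2 scale among called genes, and 371 genes were at least 1.5-fold higher (3.10%) and 292 at least 1.5-fold lower (2.44%). Vehicle cells were closer to the baseline, with 2393 genes called (20%), 1190 higher (9.95%) and 1203 lower (10.1%), of which 97 were at least 1.5-fold higher (0.811%) and 25 at least 1.5-fold lower (0.209%). The excess of decreases among all calls depends on the scale, since removing each array's trend against level gave 2244 higher and 2143 lower. Among the 371 genes, the median difference from the baseline was 0.90 with estradiol and 0.048 in vehicle. Among the 292 genes it was -0.80 and -0.091. The same baseline arrays serve both comparisons, so the test of whether the 2 treatments differed is estradiol against vehicle, in which 31.1% of all genes were called, 2.73% at least 1.5-fold higher with estradiol and 2.58% at least 1.5-fold lower. By that test 347 of the 371 genes were higher with estradiol than in vehicle, 16 were not called apart and 8 were lower. Of the 292 genes, 287 were lower with estradiol than in vehicle and 5 were not called apart. These genes were taken by their estradiol arrays, so the counts describe them and are no independent test.

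The largest increase over the baseline was that of RASGRP1, an exchange factor that activates Ras. It stood at 6.34, 6.69, 6.40 and 6.34 in the baseline arrays A to D, and at 10.87, 10.82, 10.72 and 10.64 with estradiol. Every estradiol array lay far above every baseline array, and vehicle arrays (6.45 to 6.66) lay among the baseline arrays. The difference of 4.32 ± 0.08 (standard error of the limma fit, as after every difference below) is 19.9-fold, with a Benjamini-Hochberg adjusted p of 3.7e-18. Its baseline mean of 6.44 lies little above the dim level, so this fold is less certain than one from a brighter baseline. FGFR3, a fibroblast growth factor receptor, went from 7.84, 7.93, 7.89 and 7.59 to 10.54, 10.45, 10.44 and 10.36, a difference of 2.64 ± 0.08 or 6.22-fold. Its vehicle arrays (8.08 to 8.29) also lay above the baseline, by 0.41 ± 0.08, so the estradiol level exceeded vehicle by 2.23 ± 0.08. RET, a receptor tyrosine kinase gene outside the 12 largest increases, rose from 10.49, 10.60, 10.61 and 10.56 to 12.68, 12.70, 12.70 and 12.74, which is 2.14 ± 0.03 or 4.40-fold, in all 3 of its probe sets. Its vehicle mean differed from the baseline by -0.07 ± 0.03 and was not called (limma adjusted p = 0.1). Arrays of estradiol and baseline do not overlap for any of these genes, which is so for 35.1% of all genes, as it is for 25.4% between vehicle and baseline and 30.6% between estradiol and vehicle.

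Among the 12 largest increases were SPRY4, SMAD7 and GADD45B. SPRY4, which restrains signalling from receptor tyrosine kinases to Ras, read 8.32, 8.44, 8.38 and 8.24 in the baseline and 10.73, 10.78, 10.67 and 10.55 with estradiol, 2.34 ± 0.06 higher. SMAD7, which blocks TGF-beta receptors, read 8.62, 8.70, 8.56 and 8.64 against 11.07, 11.20, 11.15 and 10.94, 2.46 ± 0.05 higher. In vehicle neither gene was called different from the baseline, at -0.04 ± 0.06 and -0.06 ± 0.05. GADD45B, a stress-inducible activator of a MAP kinase kinase kinase, rose from 7.68, 7.69, 7.62 and 7.71 to 9.86, 10.06, 10.06 and 9.93. That is 2.31 ± 0.05 or 4.94-fold, called in all 4 probe sets, while vehicle arrays (7.35 to 7.51) lay below every baseline array. For this gene the difference between estradiol and vehicle (2.55 ± 0.05) was larger than that between estradiol and baseline.

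EGR3, HSD11B2 and GDF15, the next largest increases after RASGRP1, began near or below the dim level, so no fold is given for them. The transcription factor gene EGR3, an early target of growth factors, read 4.20, 4.17, 4.14 and 4.46 in the baseline and 8.17, 7.69, 7.98 and 7.86 with estradiol, a difference of 3.68 ± 0.13. HSD11B2, whose enzyme inactivates cortisol, read 5.78, 5.72, 5.98 and 5.49 against 9.27, 9.38, 9.21 and 9.07, a difference of 3.49 ± 0.11. Vehicle means stayed below the dim level for both, at 4.60 and 5.72. The stress cytokine gene GDF15 read 6.0, 6.27, 6.22 and 6.29 in the baseline and 9.40, 9.31, 9.46 and 9.55 with estradiol, 3.24 ± 0.10 higher, with vehicle between them at 6.99. The name of its probe set marks possible cross-hybridisation, and 1 of 2 probe sets was called.

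The others of the 12 were KAZN, PPIF, CYP1B1 and TIPARP. KAZN, which encodes the junction protein kazrin, rose by 2.77 ± 0.05, from 8.54 ± 0.07 to 11.31 ± 0.06 (SD, n = 4). It was called in 2 of 3 probe sets, and vehicle exceeded the baseline by 0.17 ± 0.05. PPIF, cyclophilin D of the mitochondrion, rose by 2.25 ± 0.05, from 10.80 ± 0.08 to 13.06 ± 0.11 (SD, n = 4), and was not called in vehicle (0.08 ± 0.05). That holds for the probe set kept, while 1 of its 2 probe sets was called higher in vehicle. The limma adjusted p of the 12 increases ran from 9.6e-20 for CYP1B1 to 1.7e-14 for EGR3. CYP1B1 and TIPARP are described with the genes that moved in vehicle.

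**Figure D1:**
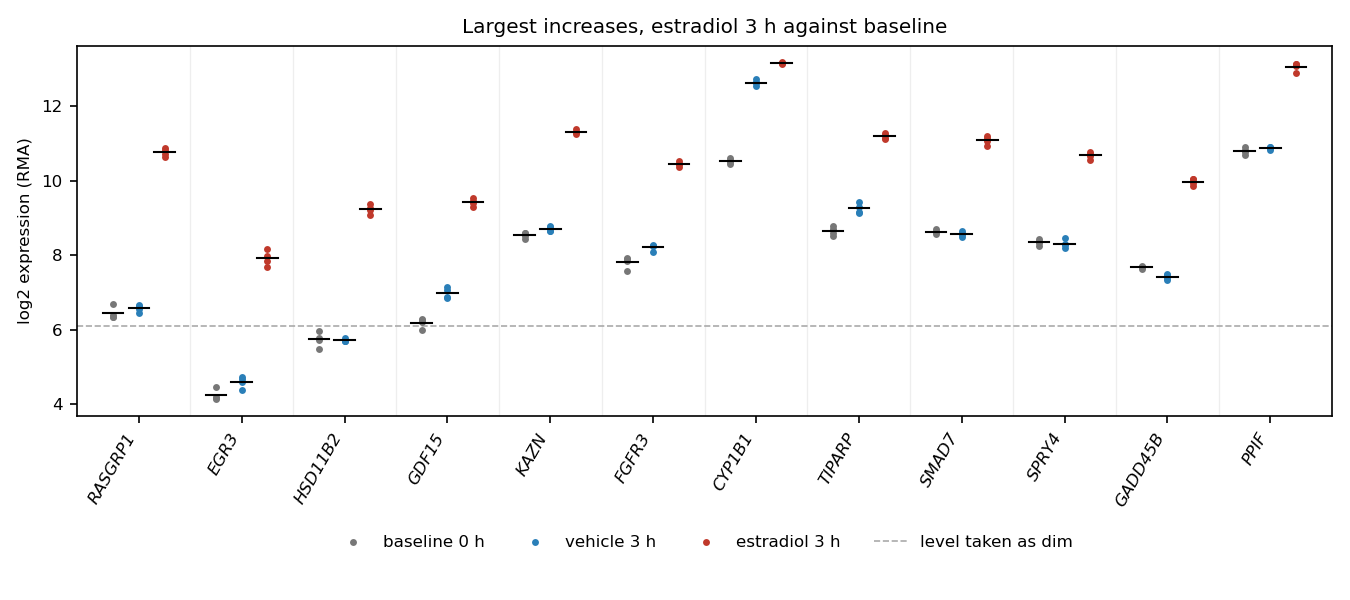
Log2 expression (vertical axis) of the 12 genes with the largest increases after 3 h of estradiol, with a point for each array (grey baseline, blue vehicle, red estradiol; 4 arrays each), a bar at each group mean and a dashed line at the dim level. Estradiol arrays lie above all baseline and vehicle arrays in every gene shown, while vehicle was called lower than the baseline for GADD45B and higher for KAZN, GDF15, FGFR3, TIPARP and CYP1B1, whose vehicle mean of 12.64 is close to its estradiol mean of 13.16.

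The largest decrease was that of the homeobox gene DLX2. It read 8.31, 8.47, 8.43 and 8.35 in the baseline and 5.78, 5.63, 5.36 and 5.60 with estradiol, a difference of -2.80 ± 0.07 that ends below the dim level. Vehicle arrays (8.86 to 9.13) lay above the baseline, so the gene was called in opposite directions in the 2 treatments, in 1 of its 2 probe sets. GATA3, a transcription factor of the luminal lineage, read 13.58, 13.51, 13.51 and 13.56 against 11.43, 11.54, 11.60 and 11.66. It fell by 1.98 ± 0.04, or 3.95-fold, in all 3 probe sets, and its vehicle difference of 0.08 ± 0.04 was not called. Of its 3 probe sets, 1 was called higher in vehicle. RGS2, which speeds the switching off of G protein alpha subunits, read 9.88, 9.92, 9.85 and 9.88 against 7.29, 7.13, 7.53 and 7.13, which is -2.61 ± 0.07 or 6.11-fold lower. Vehicle stood 0.21 ± 0.07 above the baseline.

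PDE4B, GNAI1, AMIGO2 and NAV3 were also among the 12 largest decreases. PDE4B, a cyclic AMP phosphodiesterase, read 7.15, 7.14, 7.07 and 7.06 in the baseline and 5.03, 5.19, 5.02 and 4.75 with estradiol, below the dim level, and 2 of its 3 probe sets were called. GNAI1, an inhibitory G protein alpha subunit, read 8.27, 8.30, 8.30 and 8.31 against 6.67, 6.37, 6.43 and 6.32, a difference of -1.85 ± 0.07. Vehicle was not called apart from the baseline in either gene, at 0.11 ± 0.07 and -0.13 ± 0.07. AMIGO2, an adhesion protein gene, fell by 1.80 ± 0.06 with estradiol, while its vehicle difference was -0.07 ± 0.06 and not called. The microtubule-binding gene NAV3 fell by 2.58 ± 0.06, with 1 of 3 probe sets called.

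In 5 of the 12 vehicle was also called lower than the baseline, among them NAV3 (-0.26 ± 0.06). PPFIBP2, which encodes liprin-beta 2, read 10.47, 10.49, 10.32 and 10.39 in the baseline, 9.91, 9.81, 9.99 and 9.90 in vehicle and 7.82, 7.80, 7.74 and 7.60 with estradiol. The 3 groups lie apart in that order, at -0.52 ± 0.05 in vehicle and -2.68 ± 0.05 with estradiol. PPP1R3C, a glycogen-targeting subunit of protein phosphatase 1, differed by -0.44 ± 0.04 in vehicle and -2.48 ± 0.04 with estradiol. STON1, an endocytic adaptor gene, differed by -0.64 ± 0.09 and -1.85 ± 0.09, and BAMBI, a decoy receptor for TGF-beta ligands, by -0.35 ± 0.07 and -1.84 ± 0.07. Limma adjusted p for estradiol against baseline among the 12 decreases ran from 1.7e-19 for PPP1R3C to 4.6e-12 for STON1.

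**Figure D2:**
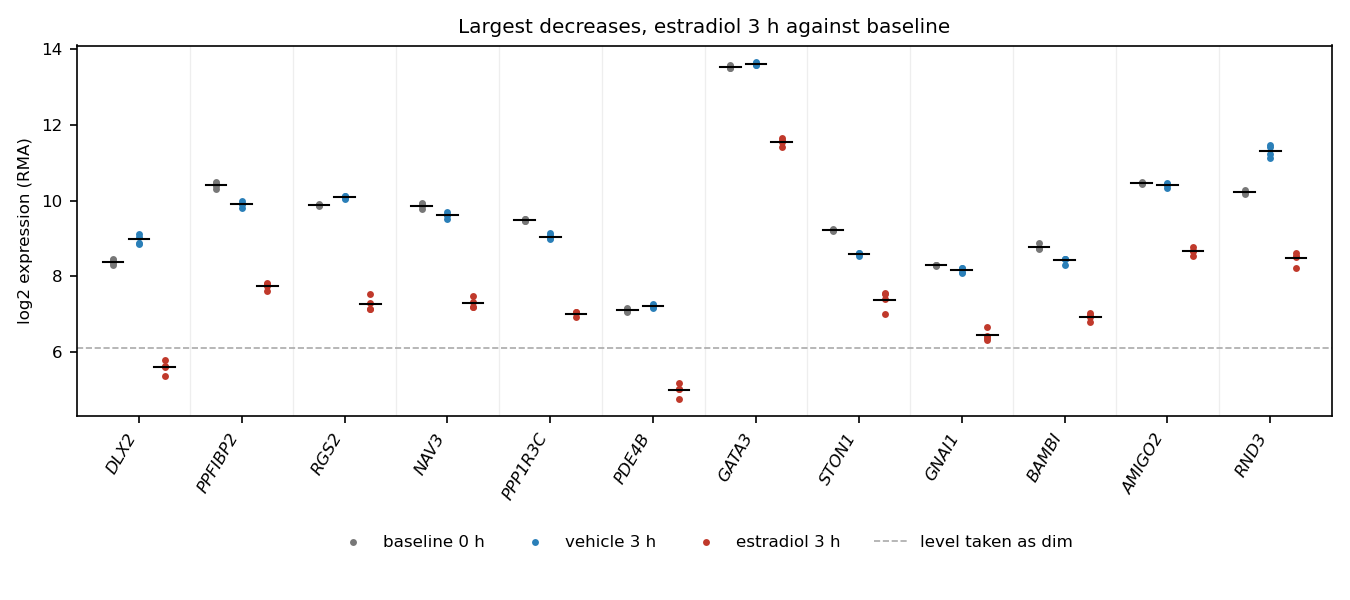
Log2 expression (vertical axis) of the 12 genes with the largest decreases after 3 h of estradiol, with a point for each array (grey baseline, blue vehicle, red estradiol; 4 arrays each), a bar at each group mean and a dashed line at the dim level. Estradiol arrays lie below all baseline and vehicle arrays in every gene shown. Vehicle was called higher than the baseline for DLX2, RGS2 and RND3, with RND3 means of 10.23 in the baseline, 11.31 in vehicle and 8.47 with estradiol. Vehicle arrays also lie just above all baseline arrays for GATA3 and PDE4B, which were not called.

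Genes that estrogen is known to induce in other breast cancer lines were mostly above the starting state, and genes known to be repressed mostly below it. Of 36 induced genes measured, 32 were higher, 0 lower and 4 not called, with a median difference of 0.90 where the median over all genes was -0.019. In vehicle 4 were higher, 9 lower and 23 not called, with a median of -0.05. Both lists were made with earlier results of these data known, so their direction is no independent evidence. HSPB8, a small heat shock protein gene, rose by 2.02 ± 0.04, the interleukin receptor gene IL17RB by 1.85 ± 0.04 (with possible cross-hybridisation), and FHL2, a transcriptional cofactor gene, by 1.99 ± 0.05. HSPB8 and FHL2 had also risen in vehicle, by 0.30 ± 0.04 and 0.47 ± 0.05, and IL17RB was not called there (0.04 ± 0.04).

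GREB1, a cofactor of the receptor, read 10.27, 10.64, 10.52 and 10.50 in the baseline and 11.92, 11.74, 11.70 and 11.81 with estradiol, 1.31 ± 0.07 higher and called in 3 of 3 probe sets. Its vehicle arrays (9.99 to 10.24) all lay below the baseline, so measured against vehicle the rise was 1.70 ± 0.07. MYC, a driver of growth and ribosome synthesis, read 7.62, 7.99, 7.95 and 7.71 against 9.92, 9.90, 10.04 and 9.81, which is 2.10 ± 0.09 or 4.28-fold, and was not called in vehicle (-0.25 ± 0.09). TFF1, a secreted trefoil peptide gene and a standard marker of estrogen action, was higher by 0.13 ± 0.02, from 13.50 ± 0.02 to 13.63 ± 0.02 (SD, n = 4). TFF3, a related gene, was not called, at -0.02 ± 0.02. Neither was called in vehicle, at 0.02 ± 0.02 and -0.02 ± 0.02. Both began near the highest baseline mean of the 7 luminal markers (13.86). Whether the signal could rise much further from there was not tested. The progesterone receptor gene PGR was higher by 0.96 ± 0.14 but lay below the dim level in all 3 groups.

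Of 14 estrogen-repressed genes 11 were lower, 1 higher and 2 not called, with a median of -0.64, and in vehicle 7 were lower and 2 higher. The 1 higher call with estradiol was lost without estradiol array B or C or baseline array A or C, and the vehicle count of 2 fell to 1 in 6 of the 8 omissions of a single array (vehicle A, B or C, baseline B, C or D). EFNA1, an ephrin ligand, differed by -1.51 ± 0.03 with estradiol and -0.34 ± 0.03 in vehicle. BIK, which promotes apoptosis, differed by -1.51 ± 0.04 and -0.40 ± 0.04, and the cyclin gene CCNG2 by -0.95 ± 0.03 and -0.19 ± 0.03. In these 3 genes vehicle had moved part of the way, whereas ID2, an inhibitor of helix-loop-helix factors, fell by 1.41 ± 0.04 with estradiol and was not called in vehicle (0.09 ± 0.04). The receptor gene itself, ESR1, stood at 13.54 ± 0.01 in the baseline, 13.29 ± 0.03 in vehicle and 13.00 ± 0.06 (SD, n = 4) with estradiol. The differences from the baseline, -0.54 ± 0.03 with estradiol and -0.25 ± 0.03 in vehicle, were called in 8 and 5 of 9 probe sets, and estradiol lay below vehicle (limma adjusted p = 1.2e-07).

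Immediate-early genes divided. Of 29 measured, 14 were higher and 7 lower than the baseline with estradiol, and 5 were higher and 8 lower in vehicle. Beside these and all later list counts stand the shares over all genes. They were 15.7% higher and 19.8% lower with estradiol, and 9.95% and 10.1% in vehicle. Small lists can differ from these shares by a gene or so without meaning, and no set test was run. FOSL2, a partner of JUN in AP-1, read 8.08, 8.14, 8.12 and 7.99 in the baseline, 7.54, 7.49, 7.51 and 7.39 in vehicle and 9.45, 9.49, 9.39 and 9.34 with estradiol. Vehicle lay below and estradiol above the baseline, at -0.60 ± 0.05 and 1.34 ± 0.05. The orphan nuclear receptor gene NR4A2 fell instead, by 1.12 ± 0.03 with estradiol, with possible cross-hybridisation, while all 3 of its probe sets were called. It was also lower in vehicle, by a smaller amount (-0.27 ± 0.03, 3 of 3 probe sets).

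Feedback genes of the MAP kinase pathway, which as a rule follow ERK activity, did not move together. Of 15 measured, 3 were higher and 7 lower with estradiol, where 15.7% and 19.8% of all genes were. In vehicle 3 were higher and 3 lower, where 9.95% and 10.1% of all genes were. SPRY4 rose, as above. DUSP6, an ERK phosphatase, read 10.62, 10.63, 10.65 and 10.63 in the baseline, 11.14, 11.33, 11.18 and 11.19 in vehicle and 9.56, 9.49, 9.78 and 9.63 with estradiol. The groups do not overlap, with vehicle at 0.58 ± 0.05 and estradiol at -1.02 ± 0.05 from the baseline, in 3 of 3 probe sets each. DUSP1, a phosphatase of stress kinases, was below the baseline in both, at -0.49 ± 0.07 in vehicle and -1.21 ± 0.07 with estradiol. SPRED2, an inhibitor of Ras signalling, was lower with estradiol (-0.65 ± 0.03) in 1 of 3 probe sets and slightly higher in vehicle (0.09 ± 0.03).

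Genes of hypoxia and glycolysis went both ways, 6 higher and 6 lower of 21 with estradiol, against 5 and 1 in vehicle. The vehicle decrease count was 0 without vehicle array B and 2 without baseline array A. PFKFB3, which makes the activator of phosphofructokinase, rose by 1.83 ± 0.05, the glucose transporter gene SLC2A1 by 1.01 ± 0.04 and VEGFA, a growth factor for blood vessels, by 1.26 ± 0.04 in 4 of 4 probe sets. The prolyl hydroxylase gene EGLN3 fell, by 1.62 ± 0.09, to below the dim level. Vehicle was not called for PFKFB3 or SLC2A1 and was higher for VEGFA by 0.11 ± 0.04 and for EGLN3 by 0.39 ± 0.09. Of 26 genes of amino acid supply and the ATF4 response 14 were higher and 4 lower with estradiol, against 8 and 3 in vehicle. Among them the leucine transporter gene SLC7A5 rose by 1.33 ± 0.04 and the lipoprotein receptor gene VLDLR by 1.83 ± 0.08, neither called in vehicle.

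Of 20 TGF-beta and BMP genes, SMAD7 included, 9 were lower and 4 higher, against 4 lower and 5 higher in vehicle. The vehicle decreases numbered 2 without vehicle array D or baseline array B or C. TGIF1, a corepressor of SMADs, fell by 1.20 ± 0.03 and was not called in vehicle (-0.02 ± 0.03). Of 17 luminal identity genes 8 were higher and 7 lower, against 3 and 6 in vehicle, where the 6 became 3 without vehicle array B or baseline array B. TFAP2A, a transcription factor, fell by 0.80 ± 0.04 and ELF3, an epithelial factor, rose by 0.77 ± 0.04, whereas vehicle moved each the other way, at 0.17 ± 0.04 and -0.38 ± 0.04. Circadian clock genes counted 9 lower and 2 higher of 17, against 3 and 3 in vehicle. Among the 9 were PER2, a clock repressor (-0.61 ± 0.04, called in 1 of 2 probe sets), and BMAL1, a clock activator (-0.41 ± 0.03). NFIL3, a factor that opposes clock output genes, rose by 0.52 ± 0.04. In vehicle NFIL3 moved the other way, at -0.26 ± 0.04, and PER2 and BMAL1 were not called. Of the 3 clock genes higher in vehicle, 2 were at least 1.5-fold higher, the largest by 0.60, against 0 with estradiol.

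Lists of stress response genes held calls in both directions, as did all genes, of which 15.7% were higher and 19.8% lower with estradiol. In vehicle these shares were 9.95% and 10.1%. Whether any stress list differed from these shares was not tested. The p53 target list counted 5 higher and 8 lower of 15, against 3 and 4 in vehicle. TP53I3, a quinone oxidoreductase, rose by 1.35 ± 0.04, while SESN1, a sestrin that restrains mTORC1, fell by 1.25 ± 0.04 and the kinase gene PLK2 by 1.13 ± 0.04. In vehicle TP53I3 was lower (-0.12 ± 0.04), and SESN1 and PLK2 were not called, at -0.09 ± 0.04 and 0.09 ± 0.04. The heat shock list had 4 higher and 3 lower of 12, against 1 and 2 in vehicle. The steroid receptor cochaperone gene FKBP4 stood at 0.54 ± 0.03 with estradiol and -0.08 ± 0.03, not called, in vehicle. The unfolded protein list had 5 higher and 3 lower of 15, against 2 and 4 in vehicle, all within 1.5-fold, with XBP1, its transcription factor, at 0.22 ± 0.03 against -0.14 ± 0.03 in vehicle. Of 23 interferon genes 3 were higher and 3 lower with estradiol and 17 were not called, where 35.5% of all genes were called, and in vehicle 1 was higher and 2 lower. The exonuclease gene ISG20 rose by 1.36 ± 0.07 with estradiol and 0.64 ± 0.07 in vehicle, and OAS1, an RNA sensor, fell by 0.65 ± 0.05 with estradiol and was not called in vehicle (-0.02 ± 0.05). With 1 array left out at a time the vehicle counts ran from 0 to 1 higher and 0 to 2 lower for the heat shock list, from 1 to 2 higher for the unfolded protein list and from 0 to 2 lower for the interferon list, and each of the 8 arrays moved at least 1 of these counts.

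Of 15 NF-kB and cytokine genes 3 were higher and 2 lower with estradiol, against 4 and 0 in vehicle. The estradiol counts are near the shares over all genes, 15.7% higher and 19.8% lower. NFKBIA, the inhibitor of NF-kB, was higher by 0.40 ± 0.03 with estradiol and not called in vehicle (0.05 ± 0.03). Of 9 glucocorticoid targets 5 were higher and 3 lower, against 1 and 2 in vehicle, and the leucine zipper gene TSC22D3 was lower in both treatments, at -0.45 ± 0.04 and -0.35 ± 0.04. Of 13 YAP and TEAD targets 4 were higher and 3 lower with estradiol and 3 higher and 1 lower in vehicle, where the 1 became 2 without baseline array C. AMOTL2, a partner of YAP, was higher with estradiol (0.80 ± 0.05) and lower in vehicle (-0.16 ± 0.05).

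Lists of other cell types were nearly all uncalled, with 1 basal marker higher of 8, 2 stromal markers lower of 13 and 1 higher and 1 lower of 12 immune and endothelial markers. Over all genes the shares were 15.7% higher and 19.8% lower with estradiol, and 9.95% and 10.1% in vehicle. By their mean over the 20 arrays, 7 of the 8 basal, 8 of the 13 stromal and 7 of the 12 immune and endothelial markers were dim. A lack of calls among dim genes says little about change. In vehicle 2 basal markers were higher and 1 stromal marker was higher and 1 lower, a decrease lost without vehicle array A, B or C or baseline array A or B. Vehicle differences of the immune and endothelial markers ran from -0.23 to 0.14 and were not called. The stromal markers called with estradiol were FN1, fibronectin, at -0.29 ± 0.05, and SPARC, a matrix protein, at -0.08 ± 0.03. FN1, measured with possible cross-hybridisation, was called the other way in vehicle (0.27 ± 0.05), in 4 of 6 probe sets in each treatment, and SPARC was not called there (-0.07 ± 0.03). With estradiol, the basal count was 2 without estradiol array A, the stromal decreases 1 without estradiol array D or baseline array A, B or D, and the immune and endothelial decreases as many as 3 without estradiol array D and 2 without baseline array C.

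**Figure D3:**
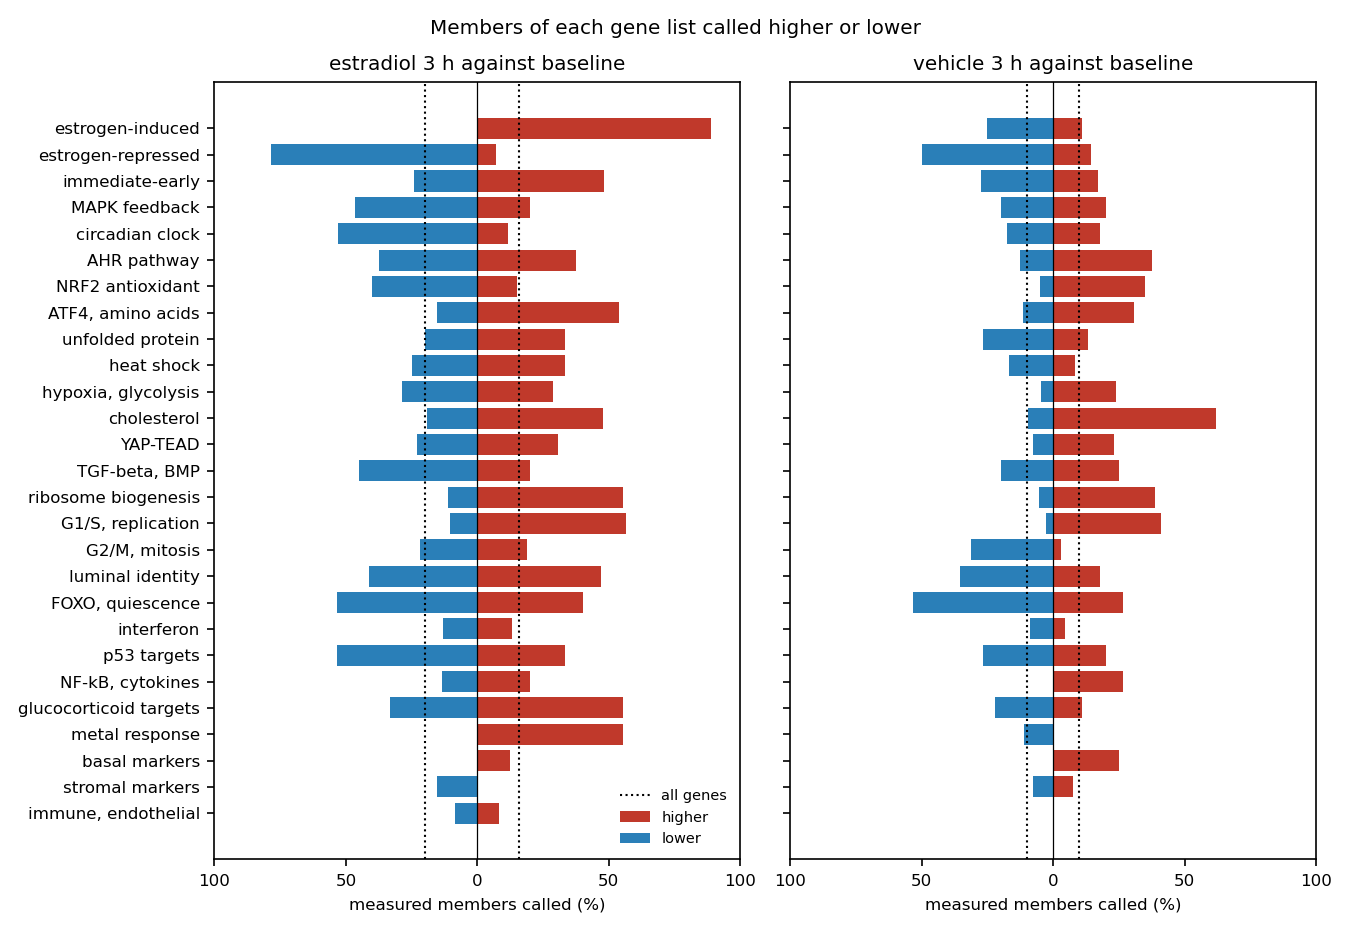
Share of the measured members of each of 27 gene lists called higher (red, right of 0) or lower (blue, left of 0) than the baseline, in percent, for estradiol at 3 h (left panel) and vehicle at 3 h (right panel), with dotted lines at the shares over all genes. Of the estrogen-induced genes 32 of 36 are red with estradiol and 4 in vehicle, and of the cholesterol genes 10 of 21 are red with estradiol and 13 in vehicle.

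The second question was which responses of vehicle cells, to medium handling, ethanol and 3 h of culture together, were still seen with estradiol. The 97 genes at least 1.5-fold higher in vehicle had a median difference from the baseline of 0.73 in vehicle, which is the value that chose them, and of 0.17 with estradiol. Their estradiol values ran from -2.80 to 3.24. With estradiol 50 of the 97 were called higher than the baseline, 25 lower and 22 not called. By size, 28 of the 97 were at least 1.5-fold higher with estradiol and 9 at least 1.5-fold lower. Estradiol lay above vehicle in 10 of the 97, below it in 75 and was not called apart in 12. Over all genes estradiol was called above vehicle in 13.5% and below it in 17.6%. The 25 genes at least 1.5-fold lower in vehicle had medians of -0.68 in vehicle and -0.44 with estradiol. With estradiol 14 of the 25 were called lower than the baseline, 10 higher and 1 not called. Estradiol lay above vehicle in 12 of the 25, below it in 10 and was not called apart in 3. These comparisons share the baseline or the vehicle arrays, so the counts describe the genes and were not read as an overlap.

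Some genes moved with vehicle and with estradiol to levels that were not called apart. This was so for 21 of the genes at least 1.5-fold from the baseline with estradiol. The examples that follow were chosen after their values were seen. KLF4, an immediate-early transcription factor gene, was higher by 1.05 ± 0.05 in vehicle and 1.19 ± 0.05 with estradiol, and the difference between treatments was 0.13 with a 95% interval of 0.02 to 0.24 (limma adjusted p = 0.071). CAMTA1, whose baseline was dim, was higher by 1.13 ± 0.13 and 1.24 ± 0.13, with an interval for the difference of -0.16 to 0.38. TIGAR, a fructose bisphosphatase gene, was higher by 0.63 ± 0.05 and 0.65 ± 0.05 (interval -0.10 to 0.13). TDO2, which degrades tryptophan, was lower in both, at -0.68 ± 0.07 and -0.70 ± 0.07 (interval -0.16 to 0.12). A p that misses the threshold does not show that the treatments act alike, and these intervals give the size of difference the data allow.

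Members of the lists show the same pattern. SLC7A1, a transporter of cationic amino acids, read 9.49, 9.66, 9.56 and 9.54 in the baseline, 10.24, 10.39, 10.34 and 10.43 in vehicle and 10.33, 10.35, 10.40 and 10.49 with estradiol. Both treated groups lie above the baseline and overlap each other, with a difference between them of 0.04 (95% interval -0.05 to 0.14). RRM2, a subunit of ribonucleotide reductase, was higher by 0.63 ± 0.06 in vehicle and 0.67 ± 0.06 with estradiol (interval of the difference -0.09 to 0.15). HMGCS1, an early enzyme of cholesterol synthesis, was higher by 0.56 ± 0.05 and 0.54 ± 0.05 (interval -0.11 to 0.08). CDKN1A, an inhibitor of cyclin-dependent kinases, was higher by 0.55 ± 0.04 and 0.53 ± 0.04 (interval -0.10 to 0.06), and IRS2, an adaptor of the insulin receptor, was lower in both, at -0.37 ± 0.03 each.

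Among whole lists, G1/S and DNA replication genes counted 16 higher and 1 lower of 39 in vehicle and 22 and 4 with estradiol, with medians of 0.08 and 0.15. MCM10, a replication initiation factor gene, was higher by 0.19 ± 0.05 and 0.54 ± 0.05, while the uracil glycosylase gene UNG was not called in vehicle and fell by 0.67 ± 0.05 with estradiol. Ribosome biogenesis genes counted 7 higher and 1 lower of 18 in vehicle and 10 and 2 with estradiol. DDX21, a nucleolar helicase gene, was higher by 0.32 ± 0.03 and 0.25 ± 0.03, and WDR12, another factor of that pathway, lower in both, at -0.23 ± 0.04 and -0.26 ± 0.04. Cholesterol genes counted 13 higher and 2 lower of 21 in vehicle (median 0.15; 1 lower without vehicle array D) and 10 and 4 with estradiol (median 0.047). INSIG2, which retains the sterol sensor in the endoplasmic reticulum, differed by -1.55 ± 0.04 with estradiol and -0.33 ± 0.04 in vehicle. Mitotic genes were lower in 10 of 32 and higher in 1 in vehicle (2 without vehicle array D), against 7 and 6 with estradiol, which is near the shares over all genes (19.8% and 15.7%). The 10 vehicle decreases became 5 without vehicle array B or D and 6 without baseline array B or D. KIF20A, a mitotic kinesin gene, was lower in both (-0.30 ± 0.04 and -0.38 ± 0.04), and AURKA, a mitotic kinase gene, was lower in vehicle (-0.18 ± 0.04) and higher with estradiol (0.26 ± 0.04). FOXO targets and quiescence genes were lower in 8 of 15 in each treatment, with 4 higher in vehicle and 6 with estradiol.

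The largest vehicle increases persisted with estradiol in part, in full or not at all. CYP1B1, a cytochrome P450 that oxidises estrogens and a target of the aryl hydrocarbon receptor, read 10.45, 10.50, 10.60 and 10.57 in the baseline, 12.66, 12.72, 12.54 and 12.62 in vehicle and 13.17, 13.18, 13.16 and 13.14 with estradiol. Vehicle alone gave 2.11 ± 0.04, and estradiol lay 0.53 ± 0.04 above it, called in 4 of 4 probe sets against the baseline in both treatments. TIPARP, an ADP-ribosyltransferase that restrains that receptor and whose promoter is shown above, read 8.59, 8.79, 8.71 and 8.53 in the baseline, 9.17, 9.42, 9.14 and 9.30 in vehicle and 11.28, 11.22, 11.14 and 11.12 with estradiol. Its vehicle difference was 0.61 ± 0.06 and its estradiol difference 2.54 ± 0.06, and estradiol lay 1.93 ± 0.06 above vehicle. The receptor gene AHR itself was raised in vehicle by 0.72 ± 0.07 and not with estradiol (0.07 ± 0.07). The other members of that 8-gene list moved little, with CYP1A2 at -0.19 ± 0.05 (-0.29 ± 0.05 in vehicle) with possible cross-hybridisation and NQO1, a quinone reductase gene, at -0.11 ± 0.02 with estradiol, and ALDH3A1 dim and not called.

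In 5 of the 8 largest vehicle increases, estradiol cells lay between the baseline and vehicle. PHLDA2, an imprinted growth regulator, read 9.0, 9.14, 9.20 and 9.16 in the baseline, 10.72, 10.84, 10.44 and 10.44 in vehicle and 9.92, 9.91, 10.09 and 10.23 with estradiol, with 1 of its 2 probe sets called in each treatment. TNFRSF12A, the receptor of the cytokine TWEAK, was higher by 1.28 ± 0.08 in vehicle and 0.78 ± 0.08 with estradiol, and estradiol lay below vehicle (-0.50 ± 0.08). ARAP2 and CEMIP, which takes part in hyaluronan breakdown, began below the dim level and were higher by 2.23 ± 0.14 and 1.42 ± 0.10 in vehicle and by 1.38 ± 0.14 and 0.65 ± 0.10 with estradiol. CREB5, a leucine zipper factor gene, was higher by 1.51 ± 0.10 in vehicle and by 0.71 ± 0.10 with estradiol, where it stayed below the dim level. Limma placed estradiol below vehicle in all 5, with adjusted p from 2.1e-06 for CREB5 to 6.2e-05 for TNFRSF12A. The genes were taken by their high vehicle arrays, which enter that test too, so it is not independent of the choice.

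The other two of the 8 were at or below the baseline with estradiol. SLC7A11, the cystine importer that feeds glutathione synthesis, read 7.61, 7.56, 7.69 and 7.49 in the baseline, 8.96, 9.34, 9.11 and 9.32 in vehicle and 7.68, 7.61, 7.89 and 7.80 with estradiol. Vehicle stood apart by 1.59 ± 0.09, or 3.02-fold, in 3 of 3 probe sets, while estradiol overlapped the baseline (0.16 ± 0.09, limma adjusted p = 0.21). ID3, a helix-loop-helix inhibitor that follows BMP signalling, read 6.30, 6.35, 6.19 and 6.21 in the baseline, 7.69, 7.91, 7.77 and 7.61 in vehicle and 6.07, 6.04, 6.01 and 5.96 with estradiol. It differed by 1.48 ± 0.07 in vehicle and -0.24 ± 0.07 with estradiol, where it lay below the dim level. ID1, its relative, showed 0.67 ± 0.10 in vehicle and -0.22 ± 0.10, not called, with estradiol, at dim levels in the baseline.

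SLC7A11 belongs to the genes of NRF2 and antioxidant defence. Of 20 such genes measured, 7 were higher and 1 lower in vehicle, against 3 and 8 with estradiol. The 1 vehicle decrease was lost without baseline array B or C. TXNRD1, thioredoxin reductase, whose promoter is shown above, read 11.23, 11.27, 11.27 and 11.29 in the baseline, 11.91, 11.97, 11.93 and 12.06 in vehicle and 10.70, 10.70, 10.71 and 10.76 with estradiol. The 3 groups are fully apart, at 0.70 ± 0.03 in vehicle and -0.55 ± 0.03 with estradiol. GCLC, the catalytic subunit of glutathione synthesis, moved likewise by 0.23 ± 0.03 and -0.39 ± 0.03. OSGIN1, a growth inhibitor listed with them, went the other way, at -0.22 ± 0.06 in vehicle and 1.95 ± 0.06 with estradiol. AKR1C3, a steroid reductase gene whose close paralogues may share its signal, was lower with estradiol (-0.42 ± 0.03) and not called in vehicle.

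Among the 8 largest vehicle decreases, 4 were above the baseline with estradiol and 4 below it. PCK1, the gluconeogenic enzyme, read 8.36, 8.58, 8.49 and 8.42 in the baseline, 7.05, 6.92, 7.25 and 6.99 in vehicle and 9.40, 9.25, 9.27 and 9.05 with estradiol. SLC30A1, the zinc exporter of the plasma membrane, whose promoter is shown above, read 12.01, 12.13, 12.16 and 11.99, then 11.28, 11.38, 11.34 and 11.36, then 13.35, 13.30, 13.34 and 13.29. In both genes vehicle lay below and estradiol above all baseline arrays, at -1.41 ± 0.08 and 0.78 ± 0.08 for PCK1 and at -0.73 ± 0.04 and 1.25 ± 0.04 for SLC30A1. Of the 9 metal response genes measured, SLC30A1 included, 5 were higher with estradiol and 0 in vehicle, where SLC30A1 was the 1 called lower. Over all genes 15.7% were higher with estradiol. The others moved less than SLC30A1, with MTF1, the metal-sensing factor, at 0.21 ± 0.04 and the metallothionein gene MT2A at 0.13 ± 0.04 with possible cross-hybridisation, neither called in vehicle. The metallothionein genes MT1G (0.11 ± 0.03) and MT1H (0.09 ± 0.04, not called) carry the same mark. Whether metallothionein signals are shared, so that the 5 count some signal more than once, was not tested. Of the 2 probe sets of MTF1, 1 was called higher with estradiol and 1 was called lower in vehicle.

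TSKU, a secreted leucine-rich protein gene, differed by -1.07 ± 0.05 in vehicle and 0.51 ± 0.05 with estradiol, and STC2, a stanniocalcin hormone gene, by -0.79 ± 0.03 and 0.24 ± 0.03. For STC2, an estrogen-induced gene, estradiol exceeded vehicle by 1.03 ± 0.03 but the baseline by far less. The 4 that were lower in both were CX3CR1, the fractalkine receptor (-0.81 ± 0.10 in vehicle and -0.97 ± 0.10 with estradiol), NUDT6, a Nudix hydrolase gene (-0.77 ± 0.06 and -0.98 ± 0.06), TNFSF10, the death ligand TRAIL (-0.74 ± 0.09 and -1.11 ± 0.09), and AVIL, an actin-binding protein gene (-0.72 ± 0.08 and -1.13 ± 0.08). TNFSF10 was measured with possible cross-hybridisation, with all 3 of its probe sets called lower, and AVIL ended below the dim level with estradiol. For AVIL, 1 of 2 probe sets was called lower with estradiol and 2 of 2 in vehicle. Of these 4, CX3CR1 was not called apart between the treatments (95% interval -0.38 to 0.05), and estradiol lay below vehicle in the others.

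**Figure D4:**
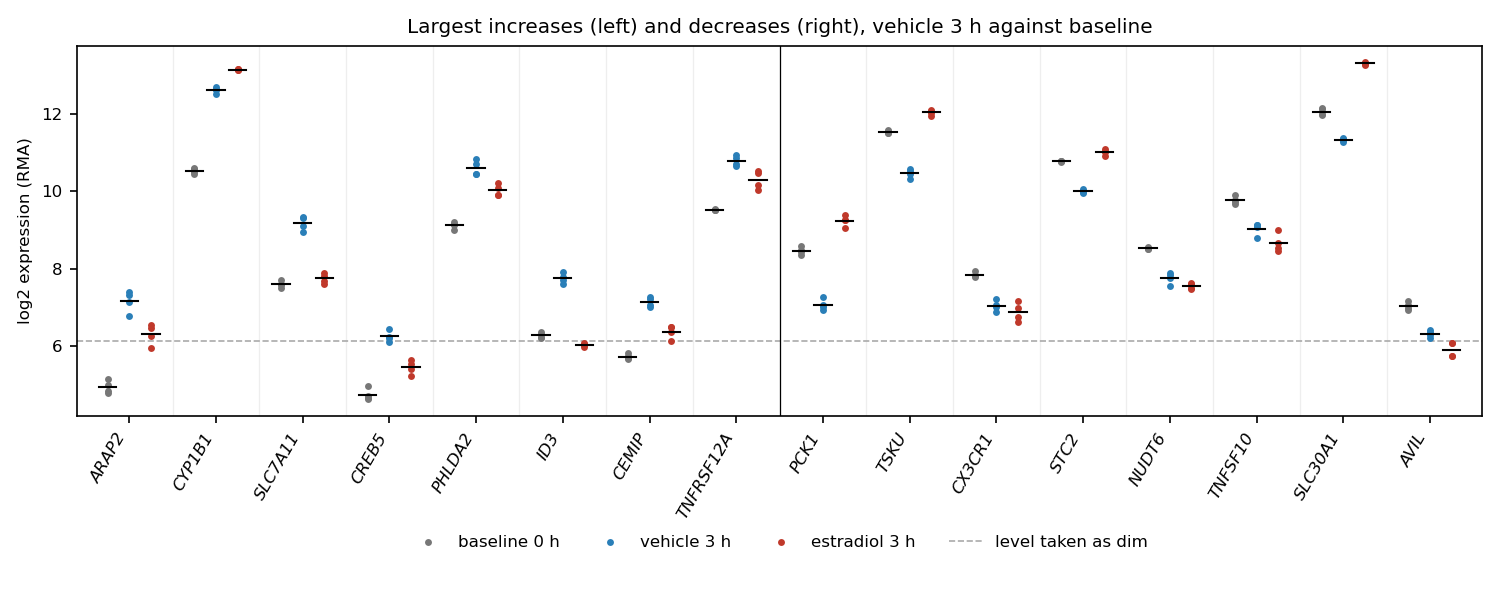
Log2 expression (vertical axis) of the 8 genes with the largest increases (left) and the 8 with the largest decreases (right) in vehicle at 3 h, with a point for each array (grey baseline, blue vehicle, red estradiol; 4 arrays each), a bar at each group mean and a dashed line at the dim level. Estradiol arrays lie between baseline and vehicle for genes such as PHLDA2, on the baseline for SLC7A11 (means 7.59 and 7.75), and on the other side of the baseline from vehicle for PCK1 and SLC30A1.

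A rule asking for at least 1.5-fold in vehicle against baseline and at least 1.5-fold back in estradiol against vehicle took 62 of 11963 genes. The 8 of these with the smallest estradiol difference were ATP1B1, RAP2B, MPZL2, ST3GAL5, FZD5, SYBU, ANXA1 and AHR, and all 8 were higher in vehicle. Since the rule used both contrasts, their values are a description. ATP1B1, a subunit of the sodium pump, read 11.47, 11.50, 11.45 and 11.49 in the baseline, 12.07, 12.25, 12.13 and 12.15 in vehicle and 11.46, 11.43, 11.47 and 11.53 with estradiol. RAP2B, a small GTPase gene, read 9.68, 9.76, 9.82 and 9.81, then 10.66, 10.92, 10.61 and 10.84, then 9.75, 9.63, 9.84 and 9.89. In both, vehicle stood alone and the estradiol arrays overlapped the baseline arrays. Vehicle differences for the 8 ran from 0.65 for SYBU, a kinesin adaptor gene, to 0.99 for RAP2B, and estradiol differences from -0.02 for MPZL2, an adhesion gene, to 0.07 for AHR. The set also held ST3GAL5, which makes the ganglioside GM3 (0.69 in vehicle and 0.02 with estradiol), FZD5, a Wnt receptor (0.68 and 0.02), and ANXA1, a membrane-binding annexin near the dim level (0.67 and 0.04).

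Over all genes, 35.5% were called against the baseline with estradiol and 20% in vehicle. Those called in opposite directions in the 2 treatments numbered 399 of 11963. Of these, 160 were higher with estradiol and lower in vehicle and 239 the reverse. The 6 with the largest movement in both directions were RND3, ARSJ, PCK1, CITED2, SLC30A1 and FLRT3. RND3, whose promoter is shown above, read 10.23, 10.23, 10.19 and 10.29 in the baseline, 11.13, 11.46, 11.24 and 11.42 in vehicle and 8.51, 8.22, 8.54 and 8.62 with estradiol. Vehicle gave 1.08 ± 0.07 and estradiol -1.76 ± 0.07, so estradiol lay below vehicle by 7.16-fold (-2.84 ± 0.07). CITED2, a cofactor that binds CBP and p300, read 11.03, 11.02, 10.95 and 11.05, then 11.66, 11.83, 11.71 and 11.80, then 9.77, 9.68, 9.84 and 9.99, in 2 of 2 probe sets. The sulfatase gene ARSJ differed by 0.89 ± 0.08 in vehicle and -1.28 ± 0.08 with estradiol. FLRT3, an adhesion receptor gene, was dim in the baseline and with estradiol and rose above that level in vehicle, at 6.69 ± 0.16 (SD, n = 4).

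**Figure D5:**
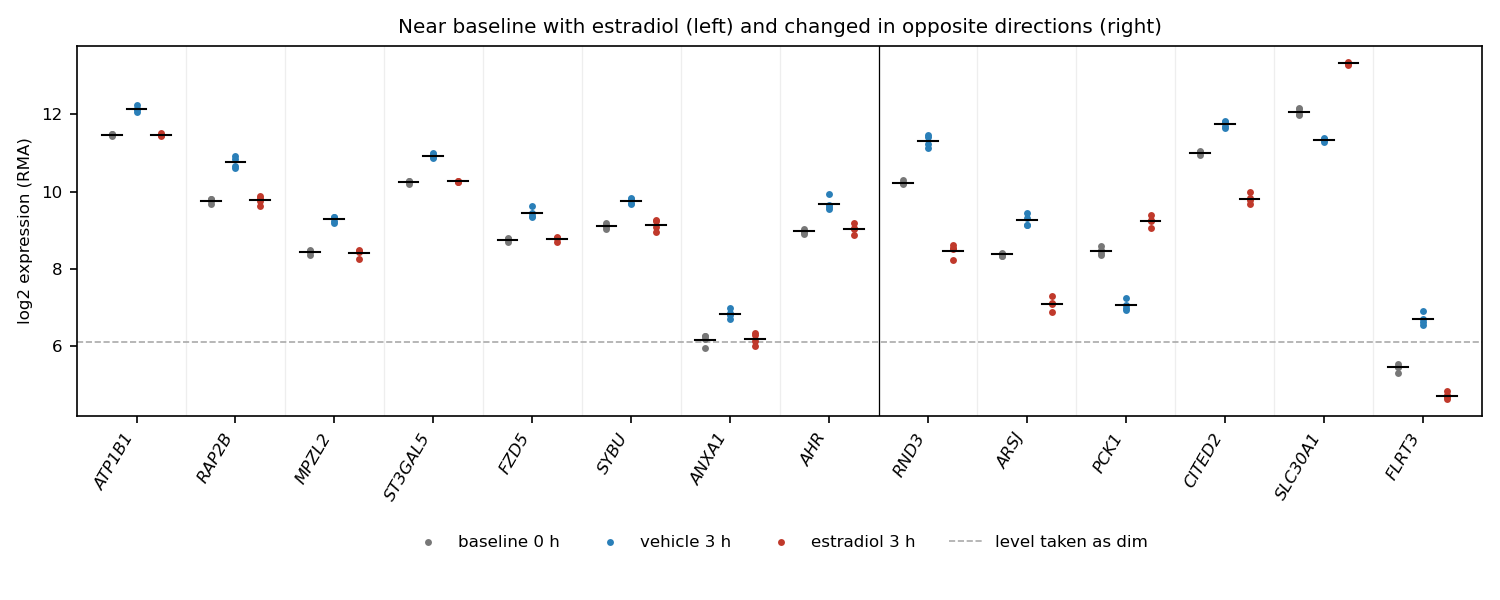
Log2 expression (vertical axis) of 8 genes that moved in vehicle and stood near the baseline with estradiol (left) and of 6 genes called in opposite directions in the 2 treatments (right), with a point for each array (grey baseline, blue vehicle, red estradiol; 4 arrays each), a bar at each group mean and a dashed line at the dim level. On the left the red and grey points coincide below the blue ones, for example at 11.47 and 11.48 against 12.15 in ATP1B1, and on the right the baseline lies between the treatments in every gene.

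At the edge of the 1.5-fold threshold, the genes just inside were PLAC1, at 0.59 ± 0.06, and AGPAT5, at -0.59 ± 0.05. The genes just outside were HOMER2 and LRP8, at 0.58 ± 0.06 and 0.58 ± 0.07. LRP8, a lipoprotein receptor gene, was also higher in vehicle (0.68 ± 0.07), whereas HOMER2, a scaffold protein gene, was not called there (-0.05 ± 0.06).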

How the data were processed

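Gene expression was measured on 20 Affymetrix arrays, 5 groups of 4, which were grouped and lettered by their titles. The groups are the baseline, vehicle and estradiol at 3 h, and vehicle and estradiol at 24 h. The authors deposited log2 values per probe set from RMA, run with affy according to the submitters' processing notes, with versions and parameters not given in the sources used here. RMA brings arrays to like distributions, which hides any change in total RNA. Of 22277 probe sets, 62 controls were left out, 19064 had 1 gene symbol, 1043 several and 2108 none (unnamed here). For genes with several, the probe set of highest mean over the 20 arrays was kept, giving 11963 genes. Detection calls were not used, so a mean below log2 6.11 is called dim and no fold is given from or to it.

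The two-sided test was limma's (version 3.58.1 under R 4.3.3; lmFit, then eBayes) on the 20 arrays together, with group means and without a block, which leaves 15 residual degrees of freedom. P-values were adjusted by Benjamini-Hochberg over the 11963 genes, with a threshold of 0.05. A sentence that says rose, fell, higher, lower or called rests on that threshold. Correlations between arrays were 0.998 to 0.999 within groups and 0.990 to 0.991 between estradiol and baseline, and 0 pairs were identical. The number of arrays limits the precision. Where the text names genes, the rule took the 12 largest estradiol increases and decreases, the 8 largest vehicle increases and decreases, 8 held near and 6 crossing the baseline, from every list up to 4 members with the lowest p and 1 that missed the threshold, and 7 genes always, with exceptions said in the text. The members and the 27 lists were chosen with earlier results of these data known. Lists are described by counts and medians, with no set test.

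On simulated data the fit was tested for estradiol against baseline over 11963 genes, where it recovered 90% of 50 genes changed 1.25-fold, 98% of those changed 1.5-fold and 100% of those changed 2-fold or 4-fold, and 12 of 206 calls were unchanged genes. Alternatives covered the block, the arrays in the fit, scaling, the choice of probe set, a filter on dim genes, array weights, the prior, the threshold and leaving out single arrays. The value of 1 control transcript is not reported here.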

Additional observations from a re-analysis of the deposited data

Results flagged for a closer look

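Among the 170 genes the naming rule took, in each of 3 groups, 25 of 510 sets of 4 arrays held 1 array far from the other 3, where chance at 1 in 20 would give 25.5. In the baseline, array A stood above the others for BIK (12.05 against 11.98 to 11.99), CYP1A2 (10.37 against 10.26) and NPAS2 (7.24 against 7.06 to 7.09) and below them for XBP1 (12.62 against 12.67). Array B stood high for COL3A1 (5.39), FKBP4 (12.28), RASGRP1 (6.69 against 6.34 to 6.40) and SLC7A5 (11.44). Array C stood low for ADM (6.35), LSS (9.52) and SPARC (10.82), and array D for ISG20 (8.20) and OSGIN1 (7.0 against 7.20 to 7.23).

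In vehicle, array A stood low for ACTA2 (5.44), array B low for BAMBI (8.29) and high for OSGIN1 (7.05), and array C high for HSPD1 (13.74). Array D stood low for HERPUD1 (11.25) and TNFSF10 (8.80 against 9.08 to 9.14) and high for HSD11B2 (5.78). With estradiol, array A stood high for SPRED2 (10.19) and array C high for PECAM1 (5.92). Array D stood low for MCM10 (8.30), SPARC (10.79) and TSC22D3 (9.92 against 10.09 to 10.10). The arrays so marked were spread over 11 of the 12, from 1 to 4 genes each, and every one of these gaps is small beside the largest differences between groups.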

How the results depend on the processing

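No count over all genes of those called against the baseline with estradiol moved by over 1.5 times under the alternatives run. Within the lists, small counts did move by that much, in 35 of 972 combinations of count and alternative for estradiol against baseline (33 of them counts of up to 5 genes), in 96 of 972 for vehicle against baseline and in 47 of 972 for estradiol against vehicle. At a threshold of 0.01 the 6 hypoxia and glycolysis decreases with estradiol became 3 and the 10 ribosome biogenesis increases 6. At a threshold of 0.01 the genes called in vehicle against baseline were 1573 in place of 2393, and those lower 709 in place of 1203, which follows from the stricter threshold. The vehicle difference of NPAS2, a clock gene not called on the probe set kept for it, was 0.328 with the mean of its 5 probe sets. Of these 5, 3 were called higher in vehicle, and why the probe sets differ was not tested. Leaving out 1 array at a time gave 3918 to 4210 genes called for estradiol against baseline, 1979 to 2200 for vehicle against baseline and 3444 to 3709 for estradiol against vehicle. With the replicate letter as a block (replicate block), calls were 1867 higher and 2369 lower for estradiol against baseline, 1155 and 1177 for vehicle against baseline, and 1605 and 2060 for estradiol against vehicle. The block also called ID1 lower with estradiol (-0.22, limma adjusted p = 0.012, against 0.11 without it), called CD3D and MTHFD2 lower with estradiol and YAP1 lower in vehicle, and lost the vehicle call of VEGFA. The deviations of same-lettered estradiol and baseline arrays correlated by -0.092, 0.013, 0.096 and 0.159, so the letters were not taken as pairs. The share of estradiol calls that were higher was 44.2%, 47.8% with arrays centred on their medians and 51.2% with the level trend removed. Dim signals limit what can be said of genes below log2 6.11.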
